A study of Salix matsudana with 3 samples.

Results

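The miR172 family of Salix matsudana, the Chinese willow, was described from its entries in a small RNA table and from its cleavage sites in a degradome table. Members were chosen by family number: every small RNA entry named miR172 or MIR172 was taken, which gave 10 of 205 entries, and every degradome row of such an entry, which gave 110 of 981 rows. All plants were 30 days old, and RNA came from roots and stems together. The small RNA libraries were 1 from untreated plants and 1 from plants that had been in 100 mmol per litre NaCl for 2 days. The degradome library, in which the 5′ ends of cleaved messenger RNAs are sequenced, was made from the RNA of both conditions mixed, so it cannot compare them. The labels name no cultivar and do not say how many plants were pooled. No untreated library at 2 days was used here, so salt cannot be told apart from the time that passed.

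Plant miRNAs are cut from a hairpin precursor as a duplex of a 5p and a 3p strand, of which usually 1 is loaded into an ARGONAUTE protein and guides cleavage of matching messenger RNAs. In miR172 the 3p strand is the guide. Its known targets are the APETALA2-like transcription factors, among them AP2, the TARGET OF EARLY ACTIVATION TAGGED (TOE) proteins, SMZ and SNZ, which in Arabidopsis hold back flowering and the change to adult growth, and AP2 itself also specifies floral organs. miR172 acts on these messengers both by cleavage and by blocking their translation, and it is known to increase with plant age as miR156 declines.

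Of the 10 entries, 6 were 3p strands and 4 were 5p strands, assigned by the core sequence they share. The prefix of a name gives the species of the matching database miRNA: ptc is Populus trichocarpa, aly Arabidopsis lyrata, nta tobacco and cme melon. The 3p sequences are printed because the results turn on single bases at their ends. Capitals mark the seed, bases 2 to 8 from the 5′ end, and T stands for U as deposited.
ptc-miR172g-3p: gGAATCTTgatgatgctgcag
ptc-miR172d: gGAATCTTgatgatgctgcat
aly-miR172a-3p: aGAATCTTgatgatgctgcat
nta-miR172d_R+1: aGAATCTTgatgatgctgcatt
cme-miR172f_R-1_1ss1TA: aGAATCTTgatgatgccgca
ptc-MIR172d-p3: tCTTGATGatgctgcatcggc
The first 5 of these share the seed GAATCTT, which no entry of another family carried, and together they made up 91.0% of the family's untreated reads and 85.6% of its salt reads. Counted from the 5′ end of ptc-miR172g-3p, ptc-miR172d differs by G21T alone, and aly-miR172a-3p by G1A and G21T. The tobacco-named entry is aly-miR172a-3p with 1 more base at its 3′ end. The cme entry differs from ptc-miR172g-3p by G1A and T17C over its 20 bases. ptc-MIR172d-p3 begins 4 bases further along the same stretch, matches ptc-miR172d over all 17 shared bases, and so has another seed.

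The 5p sequences are printed to show that the strand has several forms.
ptc-miR172b-5p: gGAGCATCatcaagattcaca
ptc-miR172b-5p_R+1: gGAGCATCatcaagattcacat
aly-miR172b-5p: gCAGCACCatcaagattcaca
ptc-miR172b-5p_L+1R-1_2ss3GC20AC: tGCAGCATcatcaagattccc
The first pair share the seed GAGCATC. The entry aly-miR172b-5p differs from ptc-miR172b-5p by G2C and T7C, both inside the seed.

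Precursors were deposited for 6 of the 10 entries, all from the contig c18344_f1p0_2845_2_3kb, whose name has the form of a long-read transcript. The hairpin of ptc-miR172b-5p and ptc-miR172g-3p lay at positions 438 to 577. It is printed with both mature strands in capitals, since it holds the sequences of a 5p and a 3p entry.
ptc-miR172b-5p and ptc-miR172g-3p precursor: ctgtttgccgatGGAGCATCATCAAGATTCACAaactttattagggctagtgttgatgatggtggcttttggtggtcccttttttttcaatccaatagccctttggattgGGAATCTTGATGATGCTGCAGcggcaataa
The 5p strand occupied positions 450 to 470 of the contig and the 3p strand 548 to 568, with 77 bases between them. The predicted fold had a minimum free energy of -61.8 kcal per mol, and in it 17 of the 21 bases of the 5p strand paired with the 3p strand. Both strands matched this hairpin exactly, but whether their reads come from it alone was not tested. ptc-miR172d and ptc-miR172b-5p_R+1 were placed on the same hairpin, but each differed from it at its last base (G21T and A22T, hairpin base first). The remaining 2 entries with a precursor, ptc-miR172b-5p_L+1R-1_2ss3GC20AC and ptc-MIR172d-p3, were deposited with a precursor numbered 331 to 469 on the same contig. Its 139 bases are the exact reverse complement of the hairpin at 439 to 577. Over 20 of its 21 bases the first of these 2 entries is the reverse complement of ptc-miR172g-3p, and it was the rarest 5p entry, with 6 untreated and 0 salt reads. ptc-MIR172d-p3 differed from the reverse-complement precursor by C14G, although it matched ptc-miR172d without a mismatch. The ranges 331 to 469 and 439 to 577 overlap by number, but the bases of the precursors differ there, read on either strand. These ranges are thus not numbered from the same end of the contig, and they do not show a second place on it. The table gives no strand, and whether the opposite strand is transcribed was not tested.

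Levels are given in reads per 1000000 listed reads (RPM). With 4622984 listed reads for untreated and 734026 for salt plants, a single read stood for 0.216 and 1.36 RPM. Where no read was counted, up to 3 remain possible, or 0.649 RPM in untreated and 4.09 RPM in salt plants. The miR172 entries summed to 4568 untreated and 1512 salt reads, which is 0.0988% (95% exact Clopper-Pearson interval 0.0960 to 0.102) and 0.206% (0.196 to 0.217) of the listed reads. By summed reads the family was in place 27 of 76 numbered families in the untreated and place 22 in the salt library. Intervals cover counting error only and take each read as independent. PCR copies of a molecule are counted again, which the intervals do not allow for, so they may be too narrow. With 1 library per condition no difference has a replicate check.

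A single 3p entry led the family in both libraries. ptc-miR172g-3p had 2149 untreated reads, or 465 RPM, and 790 salt reads, or 1076 RPM. aly-miR172a-3p came next with 1104 and 331 reads, or 239 and 450.5 RPM. These entries held places 1 and 2 in both libraries, with intervals that did not overlap.

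ptc-miR172d held place 3 in the untreated library, with 764.5 reads and 165 RPM against 135 reads and 184 RPM in the salt library. The 5p strand ptc-miR172b-5p had 305 untreated reads, or 66.0 RPM, and 182 salt reads, or 248 RPM. It held place 4 in the untreated library, below ptc-miR172d with no overlap of the intervals, and place 3 in the salt library, where its interval of 213 to 287 RPM overlapped that of ptc-miR172d (154 to 218).

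The others were below 50 RPM in both libraries. nta-miR172d_R+1 had 29.7 RPM without and 49.3 RPM with salt, and ptc-MIR172d-p3 had 13.3 and 10.9 RPM. aly-miR172b-5p had 17 untreated and 21 salt reads, or 3.68 and 28.6 RPM. ptc-miR172b-5p_R+1 had 23 and 7 reads. cme-miR172f_R-1_1ss1TA, with 1 untreated and 2.33 salt reads, was not distinguishable from the floor of 3 reads, and no fold is given for it. The salt count of 0 for ptc-miR172b-5p_L+1R-1_2ss3GC20AC allows more RPM than its 6 untreated reads represent, so a difference was not detectable at this depth. The intervals of neighbouring entries overlapped from place 5 downward in the salt library and from place 7 downward in the untreated library.

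**Figure D1:**
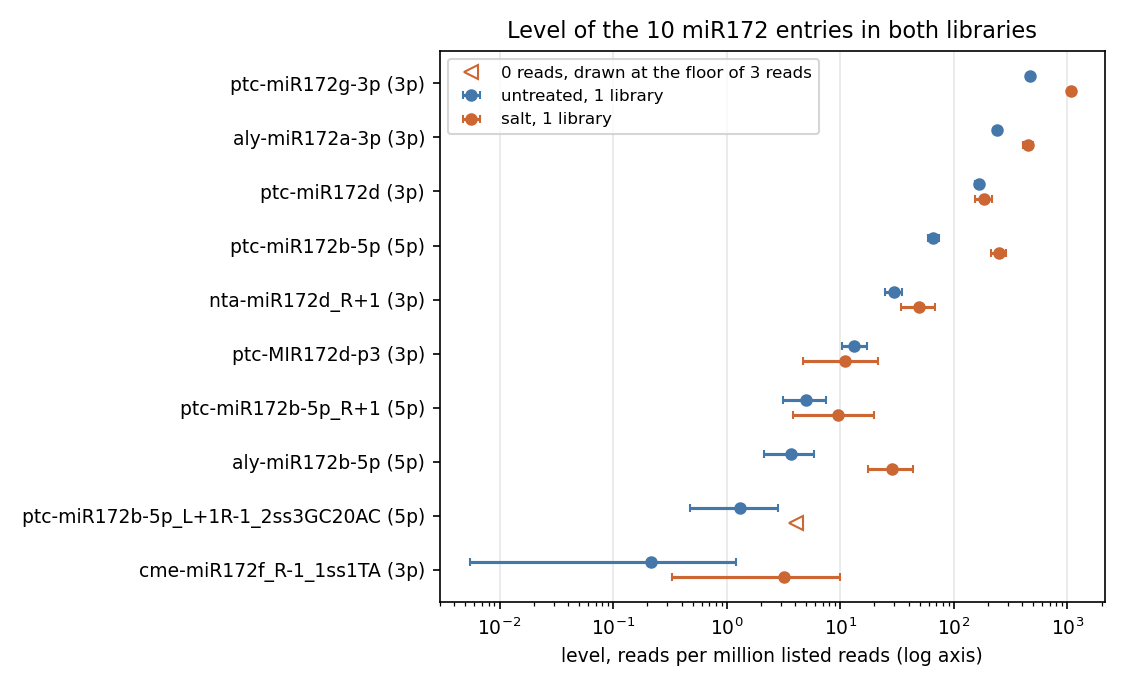
Level of each miR172 entry on a log axis in reads per 1000000 listed reads, with 1 point per library and 95% exact counting intervals; an open triangle marks 0 reads, drawn at the floor. ptc-miR172g-3p leads both libraries at 465 and 1076 RPM, and the intervals of both libraries lie apart for the 5p entries ptc-miR172b-5p and aly-miR172b-5p and for the 3p entries ptc-miR172g-3p and aly-miR172a-3p.

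Between the libraries, the 5p strand ptc-miR172b-5p had the largest ratio among the 6 entries that reached the level minimum in the untreated library alone. A ratio was read where the mean level reached 10 RPM, on the log2 scale of level + 1, and at least 2-fold counted as higher or lower. Of 7 members at this minimum, 3 were higher with salt and 0 were lower. Among all 115 entries at the minimum, 32.2% were higher and 13.0% lower. The members' median log2 ratio was 0.91, beside 0.33 over all 115. The 5p entry aly-miR172b-5p reached the minimum only through its salt level, which favours a high ratio, and among the other 6 members 2 were higher. The share over all entries at an untreated minimum is not given here, so 32.2% is no background for that count. At 1.5-fold 5 of the 7 members were higher, beside 39.1% of all. At 4-fold 1 was, again aly-miR172b-5p, beside 17.4%. With no level minimum 1 of the 10 members was at least 2-fold lower, the entry with 0 salt reads, beside 16.6% of all 205.

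The largest ratio of the family at the minimum was that of aly-miR172b-5p, 7.78-fold higher (95% exact counting interval 3.91 to 15.7), but it rests on 17 and 21 reads. ptc-miR172b-5p was 3.76-fold higher (3.11 to 4.53), a log2 ratio of 1.89, in place 23 from the top of 115. Its hairpin partner ptc-miR172g-3p had a log2 ratio of 1.21, in place 36. These 3 are the entries past 2-fold.

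The 4 within 2-fold were all 3p strands. aly-miR172a-3p had a log2 ratio of 0.91, nta-miR172d_R+1 0.71, ptc-miR172d 0.15 and ptc-MIR172d-p3 -0.27. For ptc-miR172d and ptc-MIR172d-p3 the counting interval of the ratio included equal shares, at 0.920 to 1.34 and 0.336 to 1.70.

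The direction depended on the scaling for part of the family. Reads were also scaled by the median ratio, without the 5 most abundant entries, without miR159, with identical sequences counted once, and without entries that may be rRNA or tRNA fragments. Without the 5 most abundant entries, 1 member was higher (19.1% of all) and 1 lower (35.7% of all). The higher one was aly-miR172b-5p, which reached the level minimum only through its salt level, and the lower one was ptc-MIR172d-p3. In the order given, the scalings moved the median of all 115 entries by -0.35, -0.96, -0.37, -0.17 and 0.21 on the log2 scale. Under all 6 scalings ptc-miR172b-5p had a log2 ratio above 0, from 0.92 to 2.11. So did aly-miR172b-5p, from 1.73 to 2.88, and ptc-miR172g-3p, from 0.23 to 1.43. aly-miR172a-3p and nta-miR172d_R+1 turned to -0.06 and -0.24 without the 5 most abundant entries. ptc-miR172d was above 0 under 2 of the 6 scalings, and ptc-MIR172d-p3 under 0 of 6.

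Each scaling multiplies all salt levels by 1 factor, so values relative to the median of all 115 entries hardly move by construction. They give the place of a member among all entries and are no check of the scaling. ptc-miR172b-5p stood 1.56 above that median with the listed total, ptc-miR172g-3p 0.88 above it and aly-miR172a-3p 0.58 above it. ptc-miR172d stood at -0.18 from it and ptc-MIR172d-p3 at -0.60, which became -0.51 without the 5 most abundant entries.

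**Figure D2:**
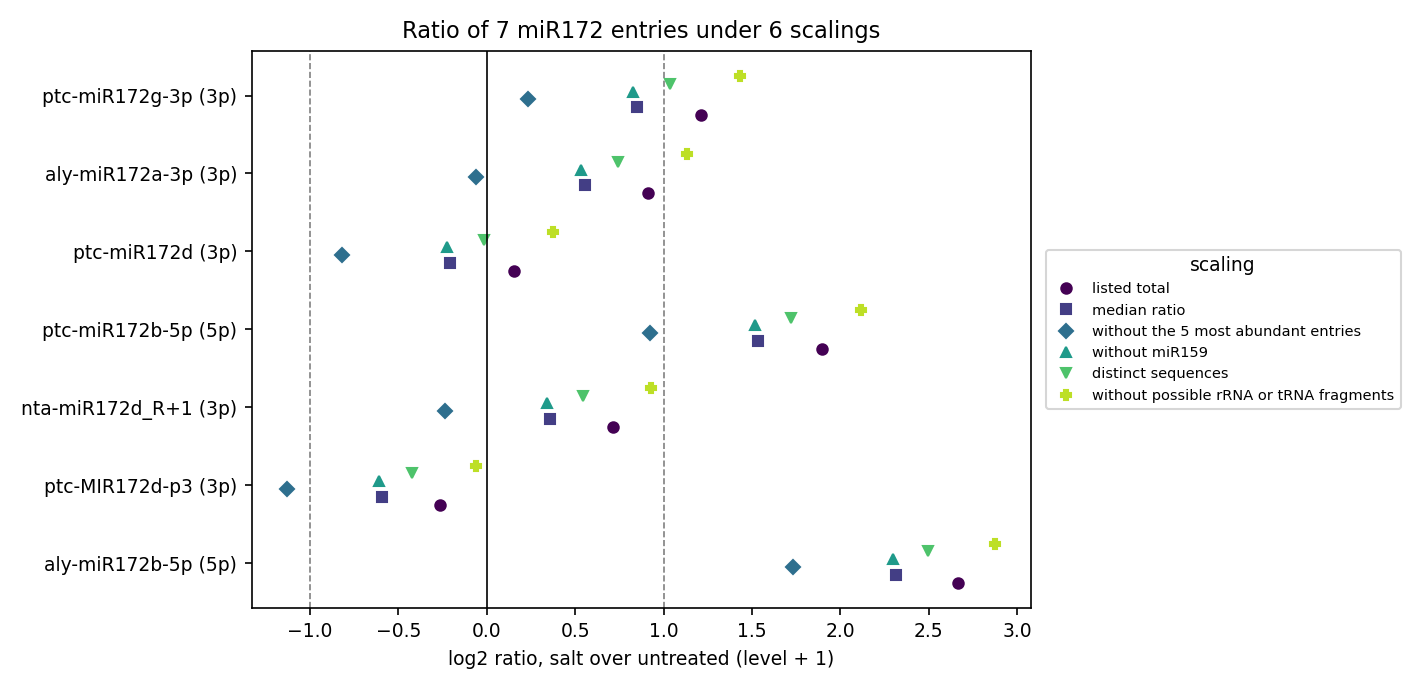
Log2 ratio of salt over untreated for the 7 miR172 entries at the level minimum, with 1 symbol per scaling, and dashed lines at 2-fold. ptc-miR172b-5p and aly-miR172b-5p lie above 0 under all 6 scalings, ptc-miR172d lies on both sides of 0, and ptc-MIR172d-p3 lies below it. aly-miR172b-5p is at the minimum only through its salt level.

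**Figure D3:**
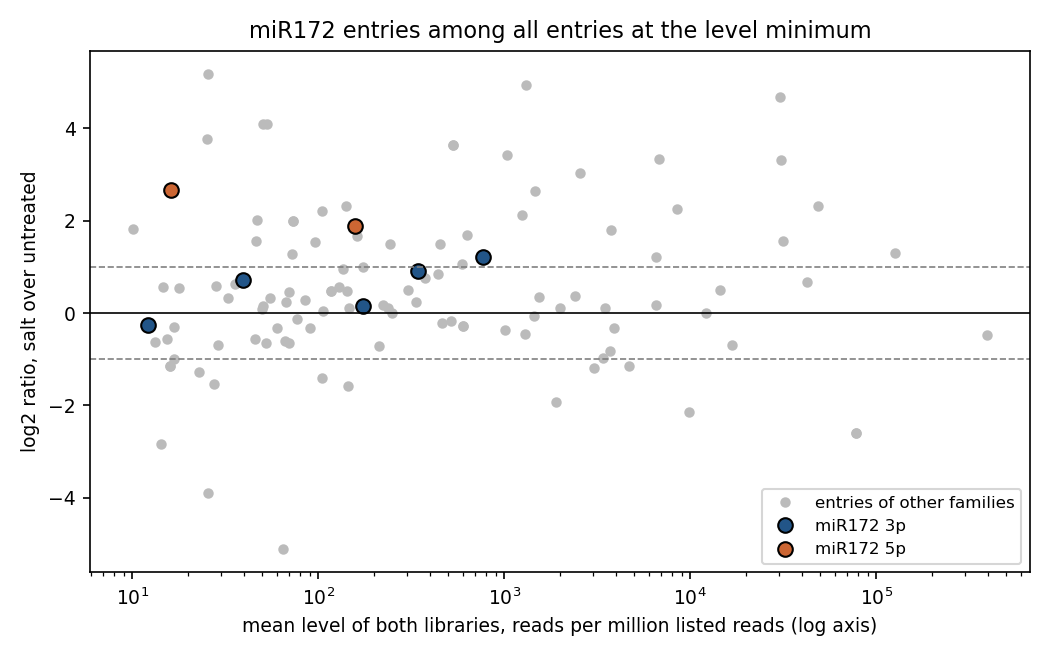
Log2 ratio of salt over untreated against mean level in reads per 1000000 listed reads (log axis) for the 115 entries at the minimum, each point 1 entry, with miR172 entries in colour by strand. The 3p entries lie between -0.27 and 1.21, and the 5p entries at 1.89 and 2.66, inside the range of the other families.

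Summed by strand, the 3p entries amounted to 912 RPM without and 1774 RPM with salt, 1.94-fold higher (1.83 to 2.07), or 0.96 log2. The 5p entries stood at 75.9 and 286 RPM, 3.77-fold higher (3.16 to 4.48), or 1.90 log2. Scaled without the 5 most abundant entries, the 3p sum was at -0.02 log2 and the 5p sum at 0.93. Without ptc-miR172g-3p, the 3p sum was at 0.64 log2.

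Ratios between members of the same library do not depend on the scaling at all. In the untreated library, ptc-miR172g-3p had 7.05 reads for each read of its hairpin partner ptc-miR172b-5p, and in the salt library 4.34. The 5p strand per 3p strand was thus 1.62-fold higher in the salt library (95% exact interval of the odds ratio 1.32 to 1.99), on whole reads of sequences that match the same hairpin. Over all entries, 12.0 3p reads per 5p read in the untreated library stood against 6.20 in the salt library, 1.94-fold (1.61 to 2.33). The 5p strands took 7.68% of the family's untreated reads (6.93 to 8.49) and 13.9% of its salt reads (12.2 to 15.7). Strands also differed in log2 ratio in other families, in both directions. ptc-MIR162a-p5 had 1.53 beside 0.35 for ptc-miR162a, and ptc-MIR394a-p3_1ss16TC 0.48 beside -0.83 for ptc-miR394a-5p. Conversely, ptc-miR168a-3p had 1.69 beside 2.26 for ptc-miR168a-5p, and ptc-MIR1448-p5_1ss21CT 0.51 beside 2.32 for ptc-miR1448_L+1R+1. Whether the shift is particular to miR172 was not tested.

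The forms of the 3p strand also shared the reads differently. ptc-miR172g-3p took 51.0% of the 3p reads in the untreated library (49.4 to 52.5) and 60.7% in the salt library (58.0 to 63.3). ptc-miR172d, which differs from it at the last base alone, took 18.1% (17.0 to 19.3) and 10.4% (8.77 to 12.2). Reads of ptc-miR172g-3p per read of ptc-miR172d were 2.81 without and 5.85 with salt, 2.08-fold apart (1.70 to 2.56). Against aly-miR172a-3p they were 1.95 and 2.39, 1.23-fold apart (1.06 to 1.43).

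The 22-base form nta-miR172d_R+1 had 36.2 salt reads, too few to tell its ratio from that of aly-miR172a-3p. aly-miR172a-3p had 8.04 reads per read of it without and 9.14 with salt, 1.14-fold apart with an interval of 0.768 to 1.73 that includes no difference. In all, 12 such pairs were compared. The counts of ptc-miR172d, aly-miR172a-3p, nta-miR172d_R+1, ptc-MIR172d-p3 and the cme entry held parts of reads, so the authors' division of shared reads enters these ratios. The part of that division in the differences was not tested.

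**Figure D4:**
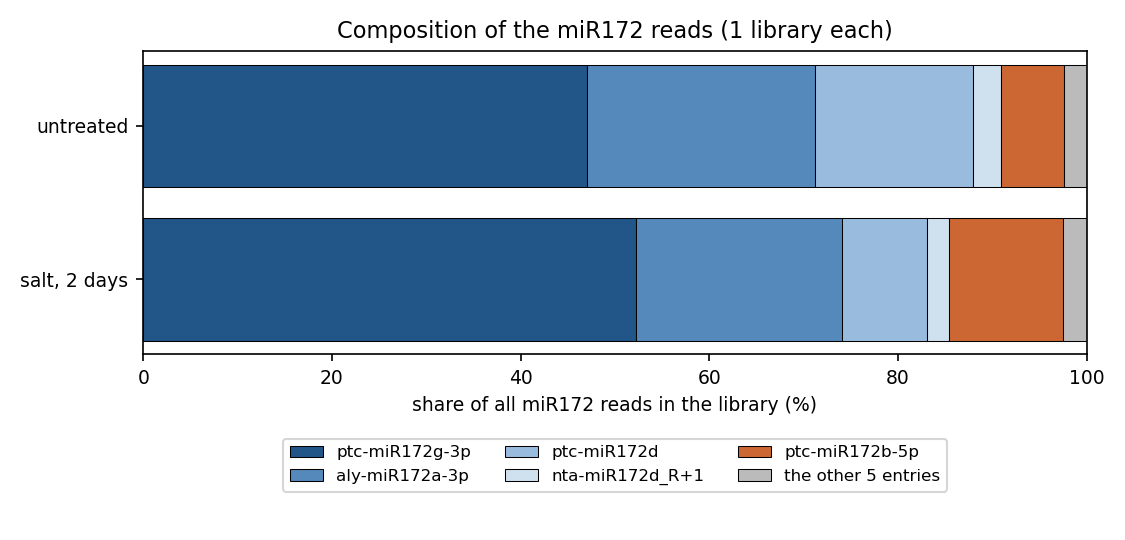
Share of all miR172 reads taken by each entry, in percent, with 1 bar per library, blue for 3p and orange for the leading 5p entry, with the other 5 entries in grey. ptc-miR172b-5p takes 6.68% without and 12.0% with salt, and ptc-miR172d takes 16.7% and 8.93%.

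In the degradome, most listings of the 3p strands were at APETALA2-like genes. All 10 miR172 entries had rows, 110 in all or 11.2% of the table. Of the 94 rows of 3p entries, 87 (92.6%) carried the symbols AP2, RAP2-7 or TOE3, and of the 16 rows of 5p entries 0 did. The same position is listed once for each of several near-identical entries. Counted once per position, 19 of 24 positions of the 3p strands (79.2%) were APETALA2-like. Counted once per combination of symbol, reads and signal, 9 of 13 were (69.2%). Of the 871 rows of other families 0 carried an APETALA2-like symbol. Each row rests on an alignment of the entry to the position. The counts of 0 for 5p entries and other families therefore also depend on sequence match and do not measure cleavage alone. RAP2-7 is another name of TOE1 in Arabidopsis, a repressor of flowering, and TOE3 is a relative of AP2. TOE2, SMZ, SNZ and factors of the wider AP2/ERF family (ERF, DREB, ANT, WRI and the like) had 0 rows in the table.

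The 5 entries that share the seed GAATCTT were each listed at the same 17 positions, 7 under AP2, 8 under RAP2-7 and 2 under TOE3. The most reads lay at AP2, where positions 1701, 1934, 1953 and 2084 each carried 510 raw reads. RAP2-7 came next, with 86 reads at positions 1202 and 1644. It carried 31 reads at 1512, 1791 and 2686, and 28 reads at 1721 and 1797. TOE3 carried 22 reads at 1917 and 2276. The fewest were 9 reads at AP2 positions 1527 and 2157. The median over the 17 positions, each counted once, was 31 reads. Over all 871 rows of other families, with every score and repeated listings included, it was 4, so these medians are not of like sets. More than 510 reads were listed in 24 rows outside miR172, all of the family miR393.

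Equal read counts recurred at different positions, and the table gives no transcript identifier. The 17 positions held 7 distinct combinations of raw reads and deposited signal (the column headed TPB). A read was worth 52.7 units of that signal at most, and 13.2 at each of the 4 AP2 positions with 510 reads, which is that value divided by 4.0. At both RAP2-7 positions with 86 reads it was worth 26.3, the same value divided by 2.0. The 17 reads at RAP2-7 position 1503 and the 17 at AP2 position 1542 had the same signal, also 26.3 per read. The divisor was 3.0 for the 31 reads at 3 RAP2-7 positions. For the 28, 22 and 9 reads, each at 2 positions, it was 2.0, 2.1 and 2.0. In each of the 7 combinations it was thus close to the number of positions listed. Outside the 17 positions it could be larger, as at ANN2 (4 with 2 positions). The header TPB is not spelled out and no transcript is named. Whether the same reads were listed on several transcripts was not tested, and the positions are not treated as independent. Counted once per combination, the 17 positions held 703 reads, of which the 510 at AP2 are 72.5%.

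The alignment score, which runs from 0 to 4 with lower values for closer matches, differed between the forms of the 3p strand and from position to position. At the AP2 positions with 510 reads and at TOE3, ptc-miR172g-3p scored 1, ptc-miR172d 2, aly-miR172a-3p 3 and nta-miR172d_R+1 3.5. At 7 of the 8 RAP2-7 positions the order was another, with a score of 2 for both ptc-miR172g-3p and aly-miR172a-3p and 2.5 for ptc-miR172d and nta-miR172d_R+1. At RAP2-7 position 1503 and AP2 position 1542, which share their read count, ptc-miR172g-3p scored 2 and the other 4 entries 3. At AP2 positions 1527 and 2157, with 9 reads each, ptc-miR172g-3p scored 1.5, ptc-miR172d 2.5 and the other 3 entries 2, so ptc-miR172d had the highest score there. The order of the forms thus did not follow the symbol. Between ptc-miR172g-3p and ptc-miR172d, which differ by G21T, the score differed by 0.5 at those 7 RAP2-7 positions and by 1 at the other 10. No form scored below ptc-miR172g-3p at any of the 17 positions. All 5 entries were given the same reads at each position, so the degradome does not tell which of them made a cut.

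**Figure D5:**
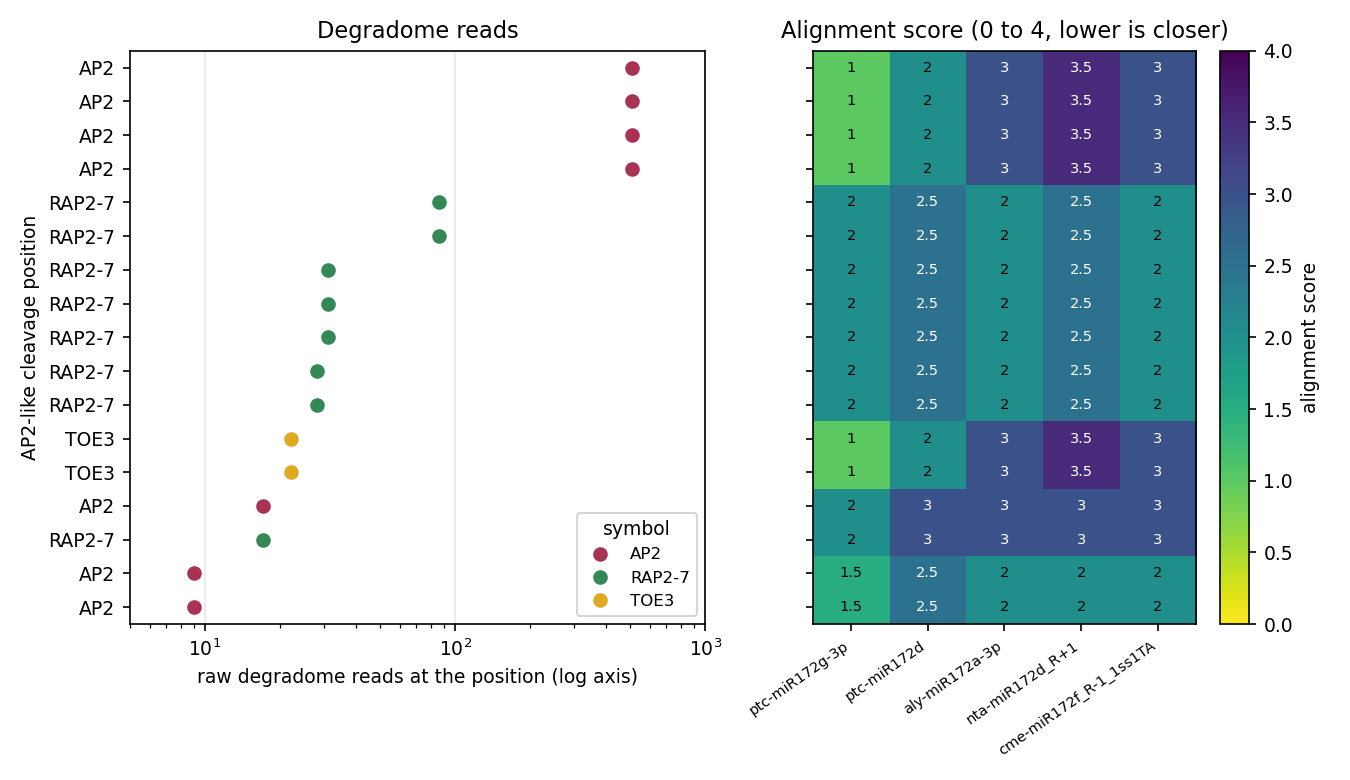
Left, raw degradome reads (log axis) at each of the 17 APETALA2-like positions, 1 point per position, coloured by symbol; right, the alignment score of the 5 entries that share a seed at the same positions. The 4 AP2 positions at 510 reads stand far right of the rest, which lie between 9 and 86 reads, and ptc-miR172g-3p has the lowest or joint lowest score in every line.

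Every one of the 87 APETALA2-like rows placed the cleavage opposite base 10 of the miRNA, counted from its 5′ end, as did 109 of the 110 miR172 rows and 88.0% of all rows in the table. The shifted entry ptc-MIR172d-p3 had only 2 rows, both at RAP2-7 with a score of 4. They lay at positions 1198 and 1640 with 3 reads each, exactly 4 bases before the positions 1202 and 1644 with 86 reads. With the cut placed opposite base 10 for both, this offset follows from the sequence of ptc-MIR172d-p3 beginning 4 bases later than that of ptc-miR172d.

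Other symbols carried few reads. The 7 other rows of 3p entries had 1 to 4 reads and scores of 3.5 to 4. They named ANN2, an annexin, at 2 positions with 4 reads each, B3GALT12, a predicted galactosyltransferase, at 1 position with 3 reads under 3 entries, and At3g48460 with 3 reads, and 1 row had no symbol. Of the 16 rows of 5p entries, 15 had 1 read, with scores of 3 to 4. Of these, 9 were positions of MSSP2, a sugar transporter of the vacuole membrane, all listed for aly-miR172b-5p and each worth 5.27 units of signal per read, the lowest value in the table. CPN60-1, whose name is that of a chaperonin, had 1 read at position 1182 with a score of 3, and 5 rows had no symbol. The most reads of a 5p entry were the 6 at NSN1, a nucleolar GTPase, also for aly-miR172b-5p. The abundant 5p entry ptc-miR172b-5p had a single row, with 1 read and no symbol. It lay at position 557, which was also listed for aly-miR172b-5p and ptc-miR172b-5p_R+1. There ptc-miR172b-5p aligned at 546 to 566, and on the precursor contig the 3p strand lies at 548 to 568. With no transcript named, whether this position belongs to the miR172 precursor itself was not tested.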

How the data were processed

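The deposited small RNA table held estimated counts per mature sequence, headed raw by the authors: 5 of the 10 miR172 entries held parts of reads, as did 68 of all 205 entries. Its columns name day 0 and day 2, and this tied them to the samples. The degradome table gave raw counts of reads per cleavage position, an alignment score and a signal headed TPB, per the file headers. The labels and files used here name no mapping or calling tool. Levels are estimated counts per 1000000 listed reads, with 1 added before log2. Reads outside the listed entries do not count toward it. Other scalings multiplied the salt levels by 1 factor and kept the level minimum. Estimated counts were rounded for intervals, which are 95% exact (conditional binomial, Clopper-Pearson or conditional odds ratio). With 1 library per condition no test was made. Hairpins were folded with RNAfold 2.7.2, and Python 3.11.15 with scipy 1.17.1 was used. The interval code was tested on data with known ratios. Members and lists were chosen with earlier results of these data known. The entries and degradome symbols of the family are all named, with no selection. Alternatives covered the pseudocount (0.1 and 5), the level minimum (none and 50 RPM), the threshold (1.5-fold and 4-fold), the scaling, and for the degradome the score, the read minimum and how repeated positions were counted.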

Additional observations from a re-analysis of the deposited data

How the results depend on the processing

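The 3p sum had a log2 ratio of 0.96. It was 0.60 with the median ratio, -0.017 without the 5 most abundant entries, 0.58 without miR159, 0.79 with distinct sequences, 1.18 without possible rRNA or tRNA fragments and 0.64 without its most abundant entry. The 5p sum (1.90) was 1.54, 0.93 and 1.52 under the first 3 of these, and within its counting interval under the rest. The 3 members at least 2-fold higher became 5 with a 1.5-fold and 1 with a 4-fold threshold, and 1 without the 5 most abundant entries. In both of the latter cases the 1 left was aly-miR172b-5p, which is at the minimum only through its salt level. The 0 lower became 1 with no level minimum and 1 without the 5 most abundant entries. Of the 110 degradome rows, 43 had a score of at most 2, 38 were left as symbol and position pairs, and 15 as combinations of reads and signal. For the 87 APETALA2-like rows these were 43, 19 and 8. The last count, and 5p per 3p reads over other sets of entries (1.94 and 1.81, beside 1.62), were added after seeing the data. Of 80 alternative values of single entries, 62 lay within the counting interval of the reported ratio and 18 outside it. The sign turned in 7, all of entries within 2-fold or under the level minimum. The 62 include every value of the entry with 0 salt reads, whose interval reaches down to 0. Entries with few reads have wide intervals, so this split is no measure of robustness. Counting identical sequences once left all 10 entries in their place of the untreated order, since no 2 of them share a sequence. Beyond what the scaling does by construction, the cause of these shifts was not tested. No paired analysis was possible because each condition has 1 library. Depth limits the salt library, where 1 read is worth 1.36 RPM.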

Other observations

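miR156, which acts before miR172 in plant ageing and represses SPL factors, was summed for comparison. Its 4 entries held 1.59 reads per miR172 read without and 6.23 with salt. A single entry named as a 3p strand, mtr-miR156i-3p_3ss11T-13TC22TG, stood at 1239 RPM without and 12429 RPM with salt, while the other one named so, mtr-miR156h-3p_2ss6TC9TG, stood at 100.2 and 80.4 RPM. The 2 entries of the strand known as the guide summed to 233 and 332 RPM. Degradome rows with an SPL symbol numbered 20, all of miR156 entries, with a median of 6.5 reads and at most 19, beside 510 at AP2. The flowering genes TEM, FT, SOC1, AP1, FUL and LFY had 0 rows.

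The 5 entries of other families nearest to ptc-miR172g-3p in untreated level and log2 ratio, by distance over these 2 values, were mes-miR477f_R+1, ptc-MIR481d-p3_2ss6AG17AG, ptc-miR168a-3p, ptc-miR167f-5p_R+1 and PC-5p-19405_280. Their log2 ratios were 1.06, 0.85, 1.69, 0.75 and 2.12, beside 1.21 for ptc-miR172g-3p, and the distances ran from 0.312 to 0.906. With 2 libraries this likeness is a description of levels.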
